A study of Mus musculus with 6 samples.

Results

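Glycolysis and the response to low oxygen were followed through 34 genes, taken by name from a list out of 37620 genes counted in mouse cells. Of these, 18 carry glucose to lactate: glucose and lactate transporters, the glycolytic enzymes, both lactate dehydrogenase genes and the pyruvate dehydrogenase kinase Pdk1. The other 16 are induced by hypoxia but lie outside that chain. All 34 were found in the deposited counts (Pkm under its older symbol Pkm2), and all 34 passed the filter on low counts.

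Glycolysis splits glucose into pyruvate in the cytosol, and lactate dehydrogenase turns the pyruvate into lactate, which leaves the cell through monocarboxylate transporters. Pluripotent stem cells are known for a high glycolytic rate. When oxygen is low, prolyl hydroxylases no longer mark the alpha subunit of hypoxia-inducible factor (HIF) for destruction, and HIF then raises many glycolytic genes as well as genes of iron, collagen, blood vessel and mitochondrial control by binding a short DNA element whose core reads ACGTG or GCGTG.

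RNA was sequenced in 6 libraries, 2 biological replicates for each of 3 groups, all from the J1 mouse embryonic stem cell line. The ESC group was wild type, grown with LIF and fetal bovine serum on feeder fibroblasts inactivated with mitomycin C, and cleared of feeders before use. The NPC group was wild-type neural progenitors made from J1 ESC by differentiation in culture. The third group had the genotype Phc1-/-, a loss of a subunit of Polycomb repressive complex 1; its source was given as derived from J1 ESC, its cell type entry reads NPC, and the series title and design call it ESC. It is therefore called the Phc1-KO-labelled group. No oxygen level, clone number or passage is given in the sources used here.

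The libraries held 15226214 to 21893821 reads counted in genes. Phc1 itself stood at 459.7 and 461 CPM (counts scaled to library size with TMM factors) in ESC and at 40.8 and 34.6 CPM in NPC. In the Phc1-KO-labelled libraries it stood at 326 and 267 CPM, with 6230 and 5529 reads. There it was called lower than in ESC (log2 change -0.63, SE 0.15). The part of the gene that was removed is not given, so reads outside it check nothing. By summed markers the Phc1-KO-labelled libraries resembled the ESC libraries and not NPC: 10 stem cell markers summed to 2099 and 2103 CPM in ESC, 12.1 and 14.4 CPM in NPC, and 2103 and 2534 CPM in the Phc1-KO-labelled libraries. Taken singly, 1 of the 10 was called higher and 2 lower in the Phc1-KO-labelled libraries than in ESC (log2 change -2.63 to 0.82). Of all genes tested, 4.91% were higher and 5.75% lower there. Against NPC all 10 were higher, where 32.3% of all genes were. The NPC libraries had 8 of 10 neural progenitor markers called higher than ESC and 1 called lower. Fibroblast markers gave the same counts, where 30.4% of all genes tested were higher and 30.9% lower. The neural progenitor markers summed to 3730 and 1775 CPM in NPC against 627.5 and 636.6 CPM in ESC. The fibroblast markers summed to 7295 and 11483 CPM in NPC against 438.6 and 429.6 CPM in ESC. The ESC libraries differed from each other far less (chi-square per degree of freedom 1.44) than the NPC pair (46.95) or the Phc1-KO-labelled pair (48.80), so the counts of members are also given with the ESC pair counted as 1 library. All p-values are from edgeR's quasi-likelihood test, adjusted by Benjamini-Hochberg over 17489 genes, with a threshold of 0.05; a gene is said to have risen or fallen where it passed.

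In RefSeq promoters of the GRCm38.p6 build, 250 bases before to 50 bases after the start, 30 of the 34 members had an entry; Slc2a3, Plod2, Bnip3l and Ndufa4l2 had none. The letters ACGTG or GCGTG were searched on both strands (as CACGT or CACGC on the other), with overlapping matches counted as 1 site. Only the first listed start of each gene was used, for the members and for all genes. At least 1 site was found there in 12 of 17 glycolytic promoters (70.6%) and in 11 of 13 other hypoxia-inducible promoters (84.6%). Of all 27025 promoters 43.8% held one, and of the 7931 with at least 60% G or C 69.7% did; the median G or C content was 64.8% in the members and 52.7% over all. A promoter with over 1 site was found for 60% of the 30 members, 17.4% of all promoters and 36.9% of those rich in G or C. Hk1, Aldoa, Pkm2, Vegfa and Mxi1 held no site at the first listed start but had a site at another listed start. A match is a run of letters and shows no binding.

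**Figure D1:**
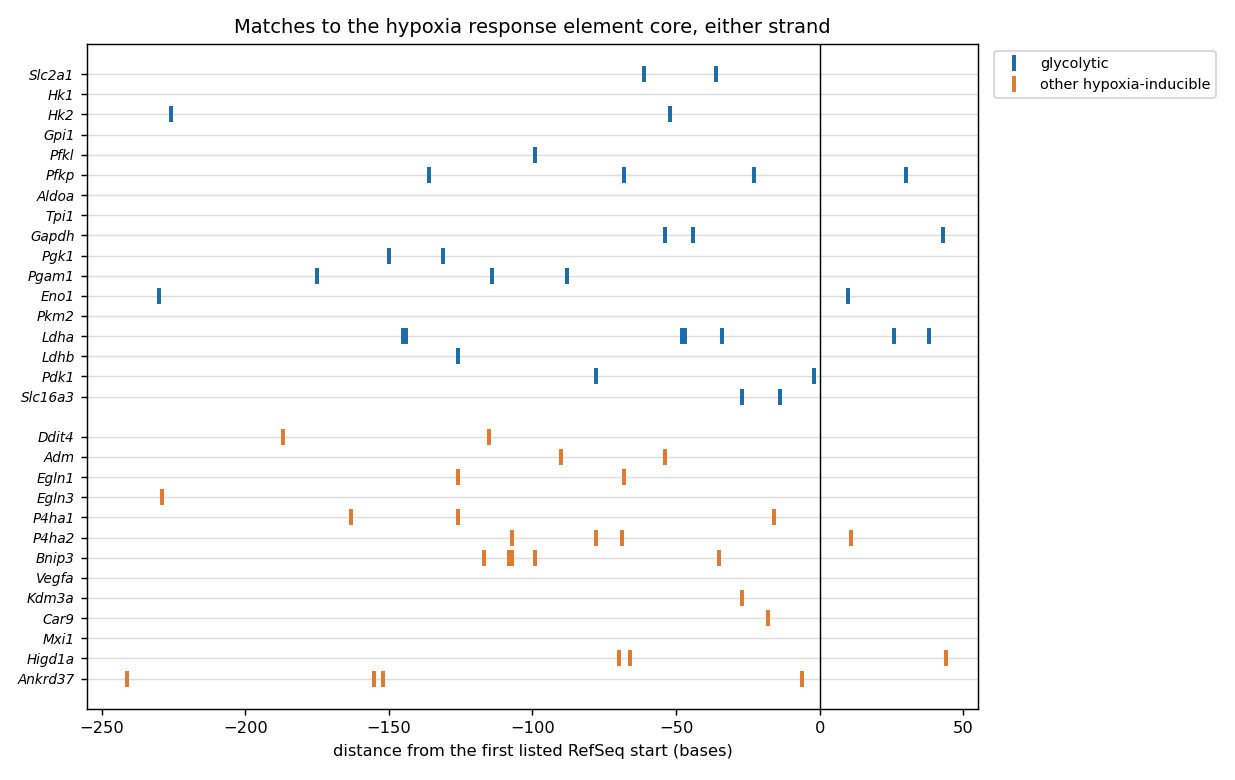
Positions of ACGTG or GCGTG matches on either strand in the 30 promoters with a RefSeq entry, as distance in bases from the start site (x axis, 0 is the start), 1 row per gene, glycolytic genes in blue and other hypoxia-inducible genes in orange. Only the first listed start of each gene is drawn. Rows with no tick, such as Hk1, Aldoa, Tpi1, Pkm2, Vegfa and Mxi1, hold no match in the window of that start. Hk1, Aldoa, Pkm2, Vegfa and Mxi1 hold a match at another listed start.

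The 250 bases before the start are shown for 7 members whose levels differ in the ways described below, chosen after their values were seen; capitals mark the matches. Slc16a3, Ldha and Pfkp are glycolytic. Bnip3 and Egln3 were lower than ESC in both other groups, P4ha1 was lower in the Phc1-KO-labelled libraries, and Adm moved in opposite directions.
Slc16a3, chr11:120948817-120949066, plus strand: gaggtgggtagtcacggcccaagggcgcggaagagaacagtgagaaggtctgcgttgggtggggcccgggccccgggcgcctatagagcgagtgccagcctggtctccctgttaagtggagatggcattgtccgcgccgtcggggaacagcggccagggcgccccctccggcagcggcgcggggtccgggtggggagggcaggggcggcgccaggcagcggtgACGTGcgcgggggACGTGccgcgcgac
Ldha, chr7:46845554-46845803, plus strand: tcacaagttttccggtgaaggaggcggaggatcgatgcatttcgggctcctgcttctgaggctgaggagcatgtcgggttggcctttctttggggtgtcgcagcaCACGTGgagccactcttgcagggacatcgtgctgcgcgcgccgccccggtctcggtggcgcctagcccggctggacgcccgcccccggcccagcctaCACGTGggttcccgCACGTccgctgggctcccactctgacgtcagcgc
Pfkp, chr13:6648772-6649021, minus strand: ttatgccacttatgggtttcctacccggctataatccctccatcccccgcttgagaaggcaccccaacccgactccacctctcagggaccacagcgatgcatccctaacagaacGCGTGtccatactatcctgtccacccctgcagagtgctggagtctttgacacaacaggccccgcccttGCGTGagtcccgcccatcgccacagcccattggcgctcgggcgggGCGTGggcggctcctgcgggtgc
Bnip3, chr7:138909507-138909756, minus strand: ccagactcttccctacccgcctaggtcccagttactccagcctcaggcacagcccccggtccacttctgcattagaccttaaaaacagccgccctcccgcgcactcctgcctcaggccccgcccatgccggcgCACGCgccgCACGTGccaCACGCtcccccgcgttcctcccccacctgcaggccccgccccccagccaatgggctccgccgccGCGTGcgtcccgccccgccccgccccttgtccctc
Egln3, chr12:54203875-54204124, minus strand: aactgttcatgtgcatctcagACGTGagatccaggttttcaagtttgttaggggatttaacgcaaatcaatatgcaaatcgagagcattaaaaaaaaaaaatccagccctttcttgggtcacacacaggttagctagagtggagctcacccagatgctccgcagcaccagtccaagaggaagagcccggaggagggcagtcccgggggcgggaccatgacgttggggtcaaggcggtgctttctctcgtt
P4ha1, chr10:59323046-59323295, plus strand: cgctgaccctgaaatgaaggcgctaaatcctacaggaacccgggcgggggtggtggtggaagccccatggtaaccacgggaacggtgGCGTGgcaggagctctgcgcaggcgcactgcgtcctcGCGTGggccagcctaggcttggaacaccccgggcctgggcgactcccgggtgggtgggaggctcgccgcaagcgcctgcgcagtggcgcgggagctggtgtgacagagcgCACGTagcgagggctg
Adm, chr7:110627407-110627656, plus strand: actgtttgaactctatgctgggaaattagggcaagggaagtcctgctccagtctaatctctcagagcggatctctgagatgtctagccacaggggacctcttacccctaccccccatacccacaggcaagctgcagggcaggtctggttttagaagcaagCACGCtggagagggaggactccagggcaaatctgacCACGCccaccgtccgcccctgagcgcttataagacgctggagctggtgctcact
Ldha and Bnip3 each hold a palindromic CACGTG, which matches on both strands. The Slc16a3 matches lie 27 and 14 bases before the start, whereas the only Egln3 match lies 229 bases before it.

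The glycolytic genes were lower in NPC as a group. Of 18, 16 fell and 2 did not pass, with a median log2 change of -2.60, while 30.9% of all genes tested fell, 30.4% rose and the median over all was -0.01. Against ESC, the Phc1-KO-labelled libraries had 9 of 18 lower (5.75% of all genes tested fell, 4.91% rose) and 9 not passing, with a median of -1.10 against 0.00067 over all. Against NPC, 15 of 18 were higher in the Phc1-KO-labelled libraries (32.3% of all genes rose and 32.7% fell), 2 lower and 1 not passing, with a median of 2.19. Summed over the 18, the level was 13299.8 and 13223 CPM in ESC, 1855 and 1352 CPM in NPC, and 6481 and 8361 CPM in the Phc1-KO-labelled libraries, with no overlap between groups.

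The 16 other hypoxia-inducible genes split. Against ESC, 10 fell and 2 rose in NPC (30.9% of all genes fell and 30.4% rose), with 4 not passing and a median of -1.01. In the Phc1-KO-labelled libraries 11 fell (5.75% of all genes) and 5 did not pass, with a median of -1.33. Against NPC, 6 of the 16 were higher in the Phc1-KO-labelled libraries and 7 lower, where 32.3% of all genes were higher and 32.7% lower, so this split lies close to that of all genes; 3 did not pass, and the median was -0.59. The sum over the 16 was 1418 and 1441 CPM in ESC, 979.8 and 990.2 CPM in NPC, and 750.5 and 777.7 CPM in the Phc1-KO-labelled libraries, so the order of the last pair of groups was the reverse of that of the glycolytic sum. The comparisons with ESC share the ESC libraries. In these bulk samples, fewer cells of a type and less RNA per cell cannot be told apart.

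The number of calls against ESC in the Phc1-KO-labelled libraries changed with how the ESC pair was treated. With that pair counted as 1 library, 3 glycolytic genes (Slc2a3, Pfkp and Ldhb) and 6 others (Ddit4, Egln1, Egln3, P4ha1, Bnip3 and Ndufa4l2) were lower. In NPC the same setting left 16 glycolytic genes lower, and 9 of the others lower and 1 higher. Against NPC it gave 15 glycolytic genes higher and 1 lower, and 5 of the others higher and 6 lower. For the Phc1-KO-labelled libraries against ESC, 3 glycolytic and 6 other members fell when ESC 1 was left out, 3 and 5 without ESC 2, 3 and 5 without Phc1-KO 2, and 7 and 8 without Phc1-KO 1. With NPC 1 or NPC 2 left out, Slc2a1, Hk2, Gpi1 and Mxi1 also passed as lower and Kdm3a as higher. Pfkp, Ldhb, Ddit4, Egln1, P4ha1, Bnip3 and Ndufa4l2 passed under every alternative run, 7 of the 20. Slc2a3, Hk1, Pfkl, Aldoa, Tpi1, Pgk1, Slc16a3, Adm, Egln3, P4ha2, Plod2, Bnip3l and Ankrd37 lost the call under some alternative. Against ESC in NPC, all 16 glycolytic calls passed under every alternative, as did 8 of the 10 other decreases and 1 of the 2 increases.

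**Figure D2:**
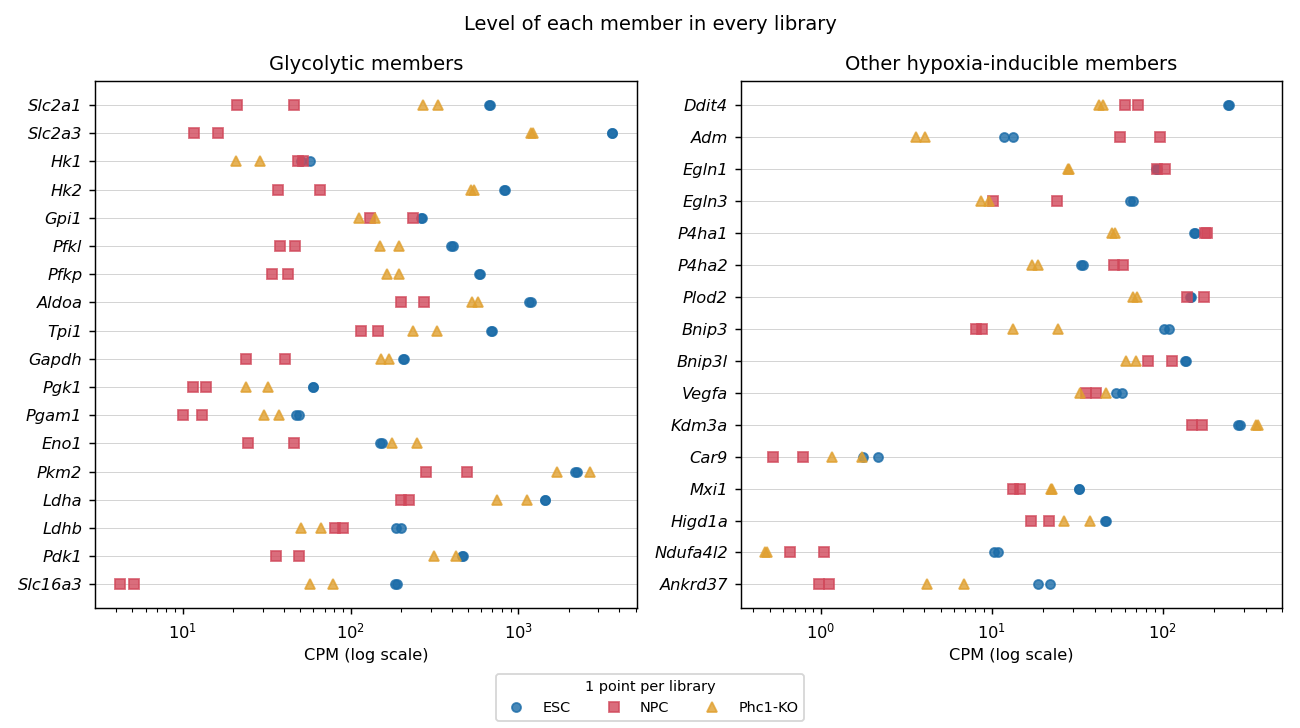
Level of each member in every library in CPM (x axis, log scale), glycolytic genes on the left and other hypoxia-inducible genes on the right, 1 point per library, coloured by group. For the 16 glycolytic genes called lower in NPC, both NPC points lie left of both ESC points, whereas both NPC points of Adm, P4ha1 and P4ha2 lie right of ESC.

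**Figure D3:**
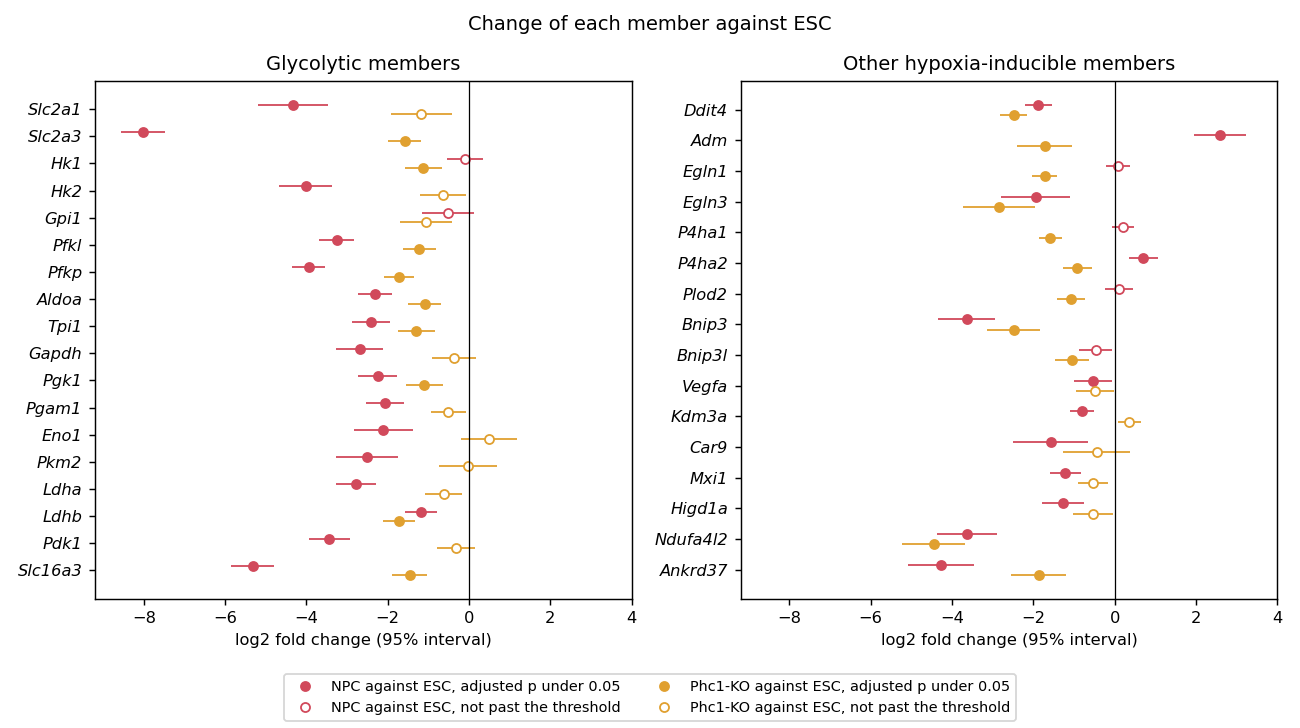
Log2 change against ESC with its 95% interval (x axis) for each member, for NPC and for the Phc1-KO-labelled libraries, filled where the change passed the threshold. Glycolytic members shift further left in NPC (median -2.60) than in the Phc1-KO-labelled libraries (median -1.10); Adm is right of 0 in NPC and left of 0 in the other group.

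In NPC the 3 transporter genes fell further than any other member. Slc2a3, which encodes the glucose transporter GLUT3 (chromosome 6, 122677827 to 122751658, mm9), was at 3611 and 3621 CPM in ESC, 11.7 and 16.2 CPM in NPC, and 1184 and 1229 CPM in the Phc1-KO-labelled libraries. Every ESC library was above every other, and both NPC libraries were lowest. It fell 259-fold in NPC (log2 change -8.01, SE 0.23, adjusted p = 5.05e-06) and also fell in the Phc1-KO-labelled libraries (log2 change -1.58, SE 0.17, adjusted p = 0.00535), where it passed except without Phc1-KO 2 (adjusted p = 0.0623).

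Slc2a1, which encodes GLUT1, was at 671 and 681 CPM in ESC, 45.8 and 21.1 CPM in NPC, and 269 and 330.5 CPM in the Phc1-KO-labelled libraries. The groups did not overlap, and the NPC libraries differed by more than the other pairs. It fell in NPC (log2 change -4.34, SE 0.36) and was not called against ESC in the Phc1-KO-labelled libraries (log2 change -1.17, SE 0.32, adjusted p = 0.0599), though it passed with DESeq2 (adjusted p = 0.00694). Slc16a3, the lactate exporter MCT4 (chromosome 11, 120809794 to 120822182), was at 190.3 and 183 CPM in ESC, 4.21 and 5.13 CPM in NPC, and 57.2 and 78.3 CPM in the Phc1-KO-labelled libraries. Both ESC libraries were highest and both NPC libraries lowest, and it fell in NPC (log2 change -5.32, SE 0.22) and in the Phc1-KO-labelled libraries (log2 change -1.46, SE 0.18). Its exons overlap Csnk1d on the other strand over 15.6% of their length, and whether the authors counted by strand is not given.

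Hexokinase traps glucose by phosphorylation. Hk2 (chromosome 6, 82675019 to 82724448), the inducible form, was at 822 and 835 CPM in ESC, 65.3 and 36.9 CPM in NPC, and 541 and 525 CPM in the Phc1-KO-labelled libraries. Hk1, the form made in most tissues, was at 56.99 and 50.6 CPM in ESC, 52.3 and 48.6 CPM in NPC, and 28.8 and 20.7 CPM in the Phc1-KO-labelled libraries. The ESC and NPC values of Hk1 overlapped, while all Hk2 values were far lower in NPC. Hk2 fell in NPC (log2 change -4.02, SE 0.27) and Hk1 did not pass there (interval -0.54 to 0.35). Against ESC in the Phc1-KO-labelled libraries Hk1 fell (log2 change -1.12, SE 0.19) and Hk2 did not pass (log2 change -0.64, SE 0.24, adjusted p = 0.132).

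Phosphofructokinase catalyses the committed step. Pfkp, the platelet form, was at 591 and 584 CPM in ESC, 33.9 and 42.5 CPM in NPC, and 164 and 193 CPM in the Phc1-KO-labelled libraries, and Pfkl, the liver form, was at 399 and 409 CPM in ESC, 37.9 and 46.5 CPM in NPC, and 150.3 and 195 CPM in the Phc1-KO-labelled libraries. The groups of both genes were separate, with ESC highest and NPC lowest. Pfkp fell in NPC (log2 change -3.94, SE 0.17) and in the Phc1-KO-labelled libraries (log2 change -1.72, SE 0.16), and Pfkl did likewise (log2 change -3.26, SE 0.18 and log2 change -1.22, SE 0.17).

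Aldoa and Tpi1 had that order too. Aldoa, an aldolase, was at 1188 and 1161 CPM in ESC, 274 and 199.9 CPM in NPC, and 527 and 572 CPM in the Phc1-KO-labelled libraries, and Tpi1, triose phosphate isomerase, was at 696 and 688 CPM in ESC, 146 and 115 CPM in NPC, and 236 and 328 CPM in the Phc1-KO-labelled libraries. Neither gene's groups overlapped. Aldoa fell by 2.31 and Tpi1 by 2.41 on the log2 scale in NPC, and both fell in the Phc1-KO-labelled libraries (log2 change -1.09, SE 0.17 for Aldoa; log2 change -1.29, SE 0.19 for Tpi1). Gpi1, glucose-6-phosphate isomerase, was at 265 and 261 CPM in ESC, 237 and 129.8 CPM in NPC, and 139.9 and 113 CPM in the Phc1-KO-labelled libraries and passed neither comparison with ESC (log2 change -0.52, SE 0.27, interval -1.15 to 0.11; log2 change -1.06, SE 0.27, adjusted p = 0.0521). Its NPC and Phc1-KO-labelled values overlapped. It fell in NPC without NPC 1 (adjusted p = 0.00281). Against ESC in the Phc1-KO-labelled libraries it passed with DESeq2, with only those groups in the fit, with a replicate block, with total-count scaling and without NPC 1 or NPC 2 (adjusted p from 0.0054 to 0.0481). Its exons overlap Gm17327 on the other strand over 16.5% of their length.

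In lower glycolysis, Pkm2, pyruvate kinase, was at 2241 and 2186 CPM in ESC, 496 and 281 CPM in NPC, and 1687 and 2679.6 CPM in the Phc1-KO-labelled libraries; its ESC and Phc1-KO-labelled values overlapped, and gene counts do not separate its M1 and M2 isoforms. It fell in NPC (log2 change -2.51, SE 0.32) and its change against ESC in the Phc1-KO-labelled libraries was -0.02 on the log2 scale (SE 0.30), with an interval of -0.74 to 0.70. Eno1, an enolase, was at 154 and 149.5 CPM in ESC, 45.8 and 24.5 CPM in NPC, and 176 and 249.6 CPM in the Phc1-KO-labelled libraries. Its Phc1-KO-labelled values were both above ESC but the change did not pass (log2 change 0.49, SE 0.29, adjusted p = 0.305), and it fell in NPC (log2 change -2.11, SE 0.31).

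Gapdh, glyceraldehyde-3-phosphate dehydrogenase, was at 207 and 208 CPM in ESC, 40.6 and 23.9 CPM in NPC, and 152 and 169 CPM in the Phc1-KO-labelled libraries. Pgk1, phosphoglycerate kinase, was at 59.8 and 60.04 CPM in ESC, 13.8 and 11.5 CPM in NPC, and 23.7 and 32.1 CPM in the Phc1-KO-labelled libraries, and Pgam1, phosphoglycerate mutase, was at 47.4 and 49.4 CPM in ESC, 13.02 and 10.1 CPM in NPC, and 30.6 and 37.3 CPM in the Phc1-KO-labelled libraries. All 3 were highest in ESC and lowest in NPC in every library, and all 3 fell in NPC. Against ESC in the Phc1-KO-labelled libraries Pgk1 fell (log2 change -1.10, SE 0.19), while Gapdh (log2 change -0.37, SE 0.23) and Pgam1 (log2 change -0.51, SE 0.18) did not pass.

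At the pyruvate branch, Ldha, the lactate dehydrogenase subunit linked with lactate production (chromosome 7, 54096845 to 54110997), was at 1442 and 1446 CPM in ESC, 222 and 199.9 CPM in NPC, and 749 and 1120.3 CPM in the Phc1-KO-labelled libraries. Ldhb, the subunit linked with the return of lactate to pyruvate, was at 200.4 and 187 CPM in ESC, 81.02 and 89.7 CPM in NPC, and 50.4 and 66.4 CPM in the Phc1-KO-labelled libraries. NPC was lowest for Ldha, whereas the Phc1-KO-labelled libraries were lowest for Ldhb. Ldhb fell in both groups (log2 change -1.18, SE 0.16 in NPC; log2 change -1.73, SE 0.17 in the Phc1-KO-labelled libraries), and Ldha fell in NPC (log2 change -2.78, SE 0.21) but did not pass in the other group (log2 change -0.63, SE 0.20, adjusted p = 0.0879). Pdk1 inhibits pyruvate dehydrogenase. It was at 460.3 and 465 CPM in ESC, 36.2 and 49.5 CPM in NPC, and 314 and 422 CPM in the Phc1-KO-labelled libraries. Pdk1 fell in NPC (log2 change -3.43, SE 0.22) and did not pass in the other group (log2 change -0.33, SE 0.20).

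The oxygen sensors differed from each other. Egln3, a prolyl hydroxylase that HIF itself raises (chromosome 12, 55279968 to 55304847), was at 64.3 and 66.6 CPM in ESC, 24.00 and 10.1 CPM in NPC, and 9.64 and 8.66 CPM in the Phc1-KO-labelled libraries, highest in both ESC libraries. Egln1, the main prolyl hydroxylase of HIF in most cells, was at 91.4 and 93.01 CPM in ESC, 103 and 92.01 CPM in NPC, and 27.8 and 28.3 CPM in the Phc1-KO-labelled libraries. Its NPC and ESC values overlapped, and both Phc1-KO-labelled values were lower. Egln3 fell in both groups (log2 change -1.94, SE 0.36; log2 change -2.84, SE 0.37), although its call against ESC in the Phc1-KO-labelled libraries was lost without ESC 2, Phc1-KO 1 or Phc1-KO 2 (adjusted p = 0.0528, 0.0599 and 0.105). Egln1 fell in the Phc1-KO-labelled libraries (log2 change -1.72, SE 0.13) and in NPC its change was 0.08 on the log2 scale (SE 0.13) with an interval of -0.22 to 0.38.

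Collagen-modifying enzymes were lowest in the Phc1-KO-labelled libraries. P4ha1, a collagen prolyl hydroxylase, was at 153 and 155 CPM in ESC, 181 and 176 CPM in NPC, and 50.3 and 52.8 CPM in the Phc1-KO-labelled libraries. P4ha2, its paralog, was at 33.3 and 34.2 CPM in ESC, 58.4 and 51.8 CPM in NPC, and 18.6 and 17.1 CPM in the Phc1-KO-labelled libraries. Plod2, a lysyl hydroxylase, was at 147 and 144 CPM in ESC, 139 and 174 CPM in NPC, and 66.9 and 70.5 CPM in the Phc1-KO-labelled libraries. All 3 fell in the Phc1-KO-labelled libraries against ESC (log2 change -1.58, SE 0.12 for P4ha1; log2 change -0.92, SE 0.15 for P4ha2; log2 change -1.08, SE 0.15 for Plod2) and against NPC. Of the falls against ESC, only that of P4ha1 passed under every alternative run. In NPC P4ha2 rose (log2 change 0.71, SE 0.15), a call lost with the ESC pair counted as 1 library and without ESC 1 or ESC 2 (adjusted p = 0.0829, 0.0796 and 0.0692), and P4ha1 and Plod2 did not pass. Of 10 fibroblast markers, which include collagen genes, 8 were called higher and 1 lower than ESC in NPC. In the Phc1-KO-labelled libraries 6 were called higher and 0 lower, and all 10 summed to 1245 and 1101 CPM. Of all genes tested, 30.4% rose and 30.9% fell in NPC, and 4.91% rose and 5.75% fell in the Phc1-KO-labelled libraries. The part of fibroblast-like cells in the levels of P4ha1, P4ha2 and Plod2 was not tested.

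Of 4 genes of the mitochondrion and its removal, 3 fell in NPC and 3 in the Phc1-KO-labelled libraries. Of all genes tested, 30.9% and 5.75% fell in these comparisons with ESC. Bnip3, a mitophagy receptor (chromosome 7, 146082519 to 146101202), was at 102 and 108 CPM in ESC, 8.09 and 8.77 CPM in NPC, and 13.2 and 24.4 CPM in the Phc1-KO-labelled libraries. Bnip3l, its paralog, was at 134 and 136 CPM in ESC, 81.9 and 113 CPM in NPC, and 61.01 and 69.9 CPM in the Phc1-KO-labelled libraries. Ndufa4l2, which restrains respiratory complex activity in hypoxia (chromosome 10, 126951995 to 126954208), was at 10.9 and 10.3 CPM in ESC, 0.658 and 1.04 CPM in NPC, and 0.471 and 0.484 CPM in the Phc1-KO-labelled libraries. Its non-ESC values rest on 10 and 16 reads in NPC and 9 and 10 in the Phc1-KO-labelled libraries. Bnip3 fell in NPC (log2 change -3.64, SE 0.30) and in the Phc1-KO-labelled libraries (log2 change -2.48, SE 0.28), and Ndufa4l2 also fell in both (log2 change -3.63, SE 0.31; log2 change -4.45, SE 0.33). Bnip3l fell in the Phc1-KO-labelled libraries (log2 change -1.04, SE 0.18) and did not pass in NPC (adjusted p = 0.0514), where it passed with DESeq2, DESeq2 size factors, a replicate block, total-count scaling and without NPC 2 (adjusted p from 0.00726 to 0.0461). Higd1a, which aids respiratory chain assembly, was at 46.6 and 45.7 CPM in ESC, 21.5 and 16.8 CPM in NPC, and 26.6 and 37.4 CPM in the Phc1-KO-labelled libraries and fell in NPC (log2 change -1.27, SE 0.22).

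The secreted factors went apart. Adm, adrenomedullin, a peptide that widens vessels (chromosome 7, 117771175 to 117773331), was at 11.8 and 13.3 CPM in ESC, 95.7 and 56.3 CPM in NPC, and 4.03 and 3.58 CPM in the Phc1-KO-labelled libraries. The groups did not overlap, with NPC highest and the Phc1-KO-labelled libraries lowest. Adm rose in NPC (log2 change 2.60, SE 0.27, adjusted p = 0.000253) and fell in the Phc1-KO-labelled libraries (log2 change -1.72, SE 0.29, adjusted p = 0.0165), a call lost without any ESC or Phc1-KO library (adjusted p from 0.0718 to 0.128). Vegfa, a growth factor for vessels, was at 57.3 and 53.4 CPM in ESC, 40.8 and 35.3 CPM in NPC, and 46.8 and 32.8 CPM in the Phc1-KO-labelled libraries. It was called lower in NPC (log2 change -0.54, SE 0.20, adjusted p = 0.0486). The call was lost with no low-count filter (adjusted p = 0.0657), with the ESC pair counted as 1 library and without any 1 ESC or NPC library. The Vegfa change in the Phc1-KO-labelled libraries was -0.48 on the log2 scale (SE 0.20).

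Among regulators, Ddit4, which restrains mTOR signalling, was at 239 and 245 CPM in ESC, 60.4 and 71.5 CPM in NPC, and 44.6 and 42.1 CPM in the Phc1-KO-labelled libraries, and both ESC libraries were above all others. It fell in both groups (log2 change -1.87, SE 0.14; log2 change -2.48, SE 0.14). Ankrd37 was at 18.6 and 21.96 CPM in ESC, 1.12 and 0.974 CPM in NPC, and 4.19 and 6.87 CPM in the Phc1-KO-labelled libraries. It was lowest in NPC, on 17 and 15 reads, and 28.9% of its exon length overlaps genes on the other strand. Ankrd37 fell in NPC (log2 change -4.27, SE 0.34) and in the Phc1-KO-labelled libraries (log2 change -1.87, SE 0.28). The latter call was lost with the ESC pair counted as 1 library and without ESC 1, ESC 2 or Phc1-KO 2. Kdm3a, a histone H3 demethylase, was at 274 and 281 CPM in ESC, 149 and 169 CPM in NPC, and 352 and 359.6 CPM in the Phc1-KO-labelled libraries, with the Phc1-KO-labelled libraries highest and NPC lowest. Kdm3a fell in NPC (log2 change -0.81, SE 0.12) and its change in the Phc1-KO-labelled libraries did not pass (log2 change 0.36, SE 0.12, adjusted p = 0.104). Mxi1, a MYC antagonist, was at 32.3 and 32.3 CPM in ESC, 14.7 and 13.2 CPM in NPC, and 22.4 and 22.01 CPM in the Phc1-KO-labelled libraries and fell in NPC (log2 change -1.21, SE 0.16). Car9, which handles acid outside the cell, was at 2.16 and 1.76 CPM in ESC, 0.526 and 0.779 CPM in NPC, and 1.73 and 1.16 CPM in the Phc1-KO-labelled libraries on 8 to 35 reads per library and fell in NPC (log2 change -1.58, SE 0.39), a call lost without ESC 1 (adjusted p = 0.0794). Its exons overlap Gm12454 on the other strand over 9.29% of their length.

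Set directly against NPC, the Phc1-KO-labelled libraries were higher in Slc2a3 (log2 change 6.43, SE 0.21), Slc16a3 (log2 change 3.86, SE 0.21), Hk2 (log2 change 3.38, SE 0.26), Slc2a1 (log2 change 3.16, SE 0.34) and Pdk1 (log2 change 3.10, SE 0.22), the 5 widest glycolytic increases. Hk1 was lower (log2 change -1.03, SE 0.19), as was Ldhb (log2 change -0.55, SE 0.16). The Ldhb call was lost with only the 2 groups compared (adjusted p = 0.0731) and with the ESC pair counted as 1 library. It was also lost without NPC 2, without Phc1-KO 1 and without either ESC library. Of the other hypoxia-inducible genes, Adm was furthest below NPC (log2 change -4.32, SE 0.30), followed by Egln1 (log2 change -1.80, SE 0.13), P4ha1 (log2 change -1.80, SE 0.12), P4ha2 (log2 change -1.63, SE 0.15) and Plod2 (log2 change -1.18, SE 0.15), with Ddit4 (log2 change -0.60, SE 0.13) and Bnip3l (log2 change -0.57, SE 0.18) also lower. The Bnip3l call was lost with only the 2 groups compared (adjusted p = 0.0739) and with the ESC pair counted as 1 library. It was also lost without NPC 2 and without any 1 ESC or Phc1-KO library. Ankrd37 (log2 change 2.397, SE 0.34), Kdm3a (log2 change 1.17, SE 0.12), Bnip3 (log2 change 1.16, SE 0.28), Car9 (log2 change 1.13, SE 0.40), Higd1a (log2 change 0.74, SE 0.22) and Mxi1 (log2 change 0.67, SE 0.16) were higher. The Car9 call was lost with DESeq2 (adjusted p = 0.120), no low-count filter (adjusted p = 0.051) and only the 2 groups compared (adjusted p = 0.0584). It was also lost with a replicate block (adjusted p = 0.0565), total-count scaling (adjusted p = 0.0504) and the ESC pair counted as 1 library. Leaving out NPC 1, Phc1-KO 1 or either ESC library lost it too. The Higd1a call was lost without NPC 2 or Phc1-KO 2.

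Paralogs were compared as CPM per 1000 unique 50-base windows of the longest protein-coding transcript, to allow for unequal length. The CPM cover all exons of a gene, which can be far longer. Hk1 had 8532 exon bases but 4227 unique windows, Pfkp 9395 but 4096, and P4ha2 6239 but 2214. Which gene of a pair is higher can therefore depend on the length used, whereas the change of a ratio between groups does not. Slc2a1 was 0.284 and 0.287 times the Slc2a3 level in ESC, 5.99 and 1.99 times in NPC and 0.347 and 0.411 times in the Phc1-KO-labelled libraries. By this measure Slc2a3 was the higher of the pair in ESC and in the Phc1-KO-labelled libraries and the lower in NPC. Hk1 was 0.0896 and 0.0782 times Hk2 in ESC, 1.04 and 1.70 times in NPC, and 0.0687 and 0.0509 times in the Phc1-KO-labelled libraries.

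The remaining pairs moved as follows. Ldha was 4.92 and 5.31 times Ldhb in ESC, 1.87 and 1.53 times in NPC and 10.2 and 11.5 times in the Phc1-KO-labelled libraries. Egln1 was about level with Egln3 in ESC (1.10 and 1.08 times) and higher in both other groups (3.32 and 7.03 in NPC; 2.23 and 2.53 in the Phc1-KO-labelled libraries). Bnip3 was 2.55 and 2.67 times Bnip3l in ESC and 0.331 and 0.260 times in NPC; the Phc1-KO-labelled libraries gave 0.728 and 1.17 times. Pfkl to Pfkp was 0.754 and 0.782 in ESC, 1.25 and 1.22 in NPC, and 1.02 and 1.13 in the Phc1-KO-labelled libraries. P4ha1 stayed above P4ha2 in every library, at 2.55 and 2.51 times in ESC, 1.72 and 1.89 times in NPC, and 1.499 and 1.71 times in the Phc1-KO-labelled libraries.

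**Figure D4:**
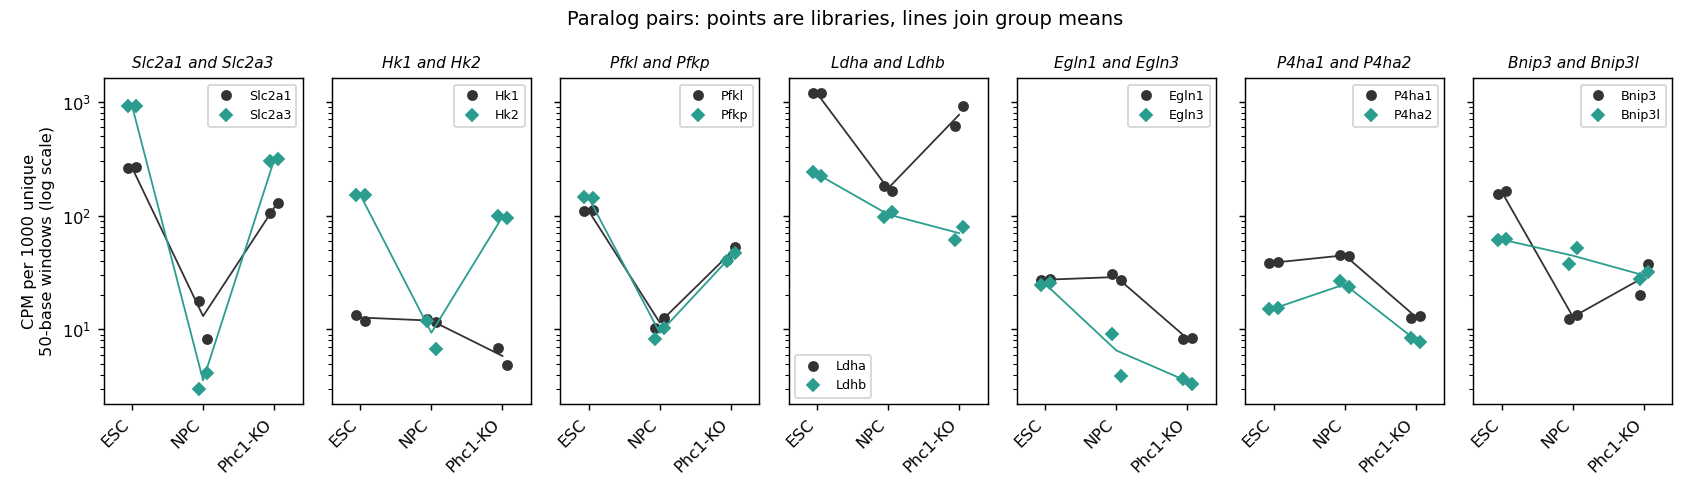
Levels of each paralog pair per 1000 unique 50-base windows (y axis, log scale) in ESC, NPC and the Phc1-KO-labelled libraries, 1 point per library. The Slc2a3 and Slc2a1 points exchange order in NPC, where Slc2a1 is 5.99 and 1.99 times Slc2a3, and Ldha stays above Ldhb in every library.

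Some members share reads with near copies in the genome. Of 50-base windows, 92.9% of Pgk1, 91.9% of Pgam1, 85.6% of Gapdh, 72.2% of Eno1, 61.7% of Bnip3 and 41.4% of Pkm2 were also found elsewhere in mm9, so their CPM understate their level and their values are uncertain. Slc2a1, Slc2a3, Hk2, Pfkp, Slc16a3 and 9 of the 16 hypoxia-inducible genes had none. Alignments tallied as not unique made up 40.9% and 41.0% of all counts tallied in ESC, 35.6% and 34.4% in NPC, and 44.6% and 46.8% in the Phc1-KO-labelled libraries. A read with several alignments may have been tallied more than once, so these are not shares of reads. The part of such alignments in these results was not tested. Per 1000 unique windows the highest ESC means were 1740 for Pkm2, 1186 for Ldha and 1051 for Gapdh, and the lowest was 0.995 for Car9.

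**Figure D5:**
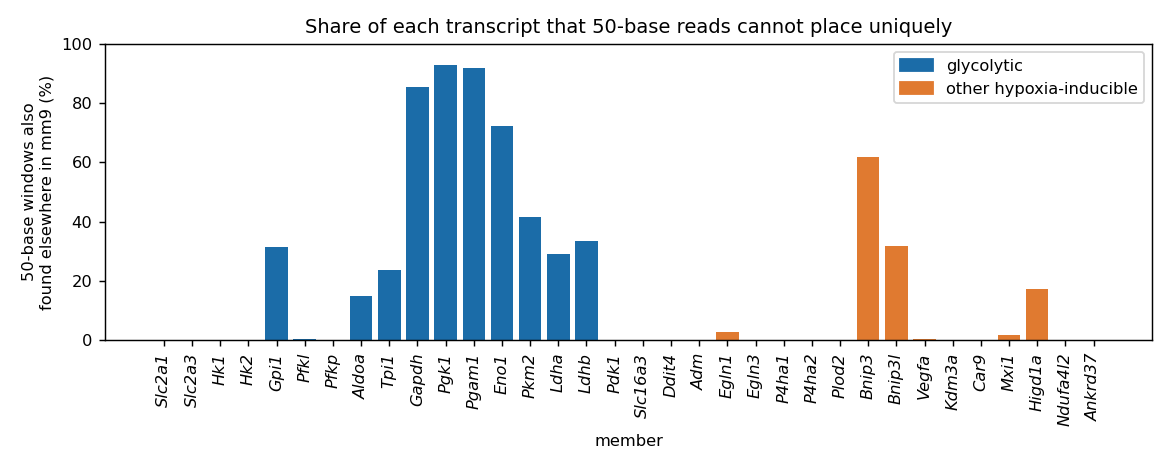
Share of each member's 50-base windows also found elsewhere in mm9 (y axis, percent), glycolytic genes in blue and other hypoxia-inducible genes in orange. Pgk1, Pgam1 and Gapdh are at 92.9%, 91.9% and 85.6%, whereas Slc2a3, Hk2 and Pfkp are at 0.

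Other genes of the pathways were counted in the same fit, with log2 changes in parentheses. The shares over all genes, 30.4% higher and 30.9% lower in NPC, 4.91% and 5.75% in the Phc1-KO-labelled libraries against ESC, and 32.3% and 32.7% against NPC, stand beside every count that follows. Of 21 tested in a list of further glycolytic genes, 9 fell and 2 rose in NPC, with Hk3 (-4.47), Pklr (-3.40) and Eno3 (-2.23) falling furthest and Pfkm rising (1.06). Against ESC, 6 of 21 fell in the Phc1-KO-labelled libraries, furthest Aldoc (-3.29), Hk3 (-1.88) and Pfkfb3 (-1.80), the last a maker of the phosphofructokinase activator. Among 13 genes for pyruvate entry and oxidation, 4 rose and 3 fell in NPC, counts close to the shares over all genes in the rise and below them in the fall. Mpc2 (1.72) and Mpc1 (1.56), the mitochondrial pyruvate carrier, rose, and Pdk4, another pyruvate dehydrogenase kinase, fell (-3.15). In the Phc1-KO-labelled libraries Pdk4 (-1.85) and Pdk3 (-0.62) fell and the other 11 did not pass.

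Of 12 genes of the HIF machinery, 6 rose and 1 fell in NPC, with the partner subunit Arnt2 (2.87) and the alpha subunit Epas1 (1.68) rising furthest and Ep300 falling (-0.48). In the Phc1-KO-labelled libraries, Egln2 rose (0.95), Hif3a fell (-1.16) and 10 did not pass. Against NPC, 7 of 12 were lower in the Phc1-KO-labelled libraries, furthest Arnt2 (-2.65). Of 31 further hypoxia-inducible genes, 15 fell and 6 rose in NPC, with Angptl4 (-5.17) and Mif (-2.81) falling furthest and Stc1 (2.28), Loxl2 (2.08) and Rora (1.96) rising. Against ESC, 12 of the 31 fell in the Phc1-KO-labelled libraries, furthest Ndrg1 (-2.75) and Car12 (-2.25). Pfkfb3 and Pfkfb4 stand both in this list and in that of further glycolytic genes, so the lists are not separate.

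Markers of other cell types moved with these groups too. Of 9 macrophage markers tested, 9 were lower in NPC and 6 in the Phc1-KO-labelled libraries, and all 10 markers summed to 154.3 and 151.0 CPM in ESC, 6.71 and 8.31 CPM in NPC, and 41.6 and 26.5 CPM in the last group, with Emr1, Itgam and Tyrobp at 0 in both NPC libraries. Of 7 astrocyte markers, 6 were higher in NPC. The part of these cell types in the levels of the 34 genes was not tested.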

How the data were processed

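RNA was measured in 6 libraries (Ribo-Zero Gold, TruSeq, 50-base single-end reads, per the labels). Each table deposited by the authors holds unnormalized read counts by Ensembl gene; STAR, HTSeq and mm9 are named, per the submitters' processing notes, while tool versions, annotation and strandedness were not given in the sources used here. Tallies given to no gene, 68.5% to 73.8% of all counts tallied, were left out. They include alignments that were not unique, so this is not a share of reads. Reads lying in no gene, per read counted in a gene, were 0.84 and 0.85 in ESC and 1.03 and 1.09 in NPC. In the Phc1-KO-labelled libraries they were 1.08 and 0.66. The part of this in the spread of that pair was not tested. GENCODE M1 gave symbols and mm9 positions.

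edgeR 4.0.16 (quasi-likelihood F test, TMM, R 4.3.3) was fitted to all 6 libraries with 1 term per group, leaving 3 residual degrees of freedom; genes passed filterByExpr at a minimum count of 10 and total of 15. DESeq2 1.42.0 was an alternative, beside other scalings, no filter, only the 2 groups compared, a replicate block, each library left out, and the ESC pair counted as 1. The fit was tested on simulated counts. Replicate numbers did not pair libraries. The members and lists were chosen with earlier results of these data known. Named in full were the 5 largest changes per direction, class and comparison and the paralog pairs; of other lists, up to 3 per direction, with 1 item not reported here. Windows of 50 bases of the longest protein-coding transcript of each member were searched in mm9.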

Additional observations from a re-analysis of the deposited data

How the results depend on the processing

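Against ESC in the Phc1-KO-labelled libraries, 858 genes rose and 1006 fell. These became 1342 higher with DESeq2; 1791 and 2108 with only the 2 groups compared; 62 and 83 with the ESC pair counted as 1 library; and 683 and 1223 with total-count scaling, which moved the median of all genes to -0.08. Leaving out 1 library gave 32 to 1757 higher and 57 to 1958 lower. Glycolytic members lower numbered 14 with only the 2 groups and 3 with the ESC pair as 1 (3 to 12 leaving out 1 library); other hypoxia-inducible members lower numbered 6 with the ESC pair as 1 (5 to 12), and higher 1 with only the 2 groups (0 to 1; this is Kdm3a). Hypoxia-inducible members higher in NPC numbered 1 with the ESC pair as 1 (1 to 2). Glycolytic members lower than in NPC numbered 1 with the ESC pair as 1 or only the 2 groups (1 to 2). The other counts of members and genes stayed within 1.5 times. The cause was not tested.

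The change of Pkm2 against ESC in the Phc1-KO-labelled libraries turned to 0.0094 with DESeq2 and with DESeq2 size factors, and leaving out 1 library gave -0.39 to 0.28 (0.0034 without ESC 1). Leaving out 1 library, the NPC change of Egln1 ran from -0.0017 to 0.16, that of Plod2 from -0.058 to 0.26, and that of Vegfa against NPC from -0.20 to 0.31 (-0.036 without NPC 2). None of these was called.

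With the replicate number as a block, 636 genes were higher and 791 lower against ESC in the Phc1-KO-labelled libraries, and 10 glycolytic and 11 other members were lower. Libraries with the same number did not deviate together (correlations 0.02, 0.02 and -0.02), so the numbers do not pair them. Car9 rests on 8 to 35 reads per library and Ndufa4l2 on 9 to 16 outside ESC, which limits their precision.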

Other observations

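The pentose phosphate pathway, which branches from glycolysis at glucose-6-phosphate and supplies NADPH and ribose, was counted in 7 genes. In NPC, Taldo1 (transaldolase) fell by 1.25 and Rpia (ribose-5-phosphate isomerase) by 0.60 on the log2 scale, Pgls (6-phosphogluconolactonase) rose by 0.58, and the other 4 did not pass. Against ESC in the Phc1-KO-labelled libraries, 0 of the 7 passed with edgeR or with DESeq2, and 1 had an unadjusted p under 0.05. Against NPC, Taldo1 (log2 change 1.39), G6pdx, the entry enzyme (0.93), and Rpia (0.76) were higher in the Phc1-KO-labelled libraries.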
